A study of Mus musculus with 4 samples.

Results

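The genes examined were 54 genes of the cell cycle, chosen by symbol: 22 that act in S phase, when DNA is copied, and 32 that act in G2 and M phase, when chromosomes are condensed, separated and divided between daughter cells. All 54 were among the 23107 genes of the deposited tables. RNA came from tdTomato-positive cells sorted by flow cytometry from mouse mandibular molars at postnatal day 8, where the dental follicle is the mesenchyme that wraps each developing tooth. The libraries labelled cKO (Ptch1(-/-), n = 2) were set against those labelled cHet (Ptch1(+/-), n = 2); both groups carried the tdTomato label and had tamoxifen at postnatal day 3, and a control with both Ptch1 copies intact was not analysed here. Ptch1 encodes the receptor for hedgehog ligands, which keeps the pathway silent until ligand binds, so the comparison asks what differs when both copies rather than 1 are targeted. The sorted cells are labelled PTHrP-positive, and the recombinase that tamoxifen acted on, the number of animals behind a library and the share of cells recombined are details not given in the sources used here.

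The libraries differed less in total than in the genes they held. Scaled totals, the sums of the authors' scaled counts, lay between 69361760 and 71228342. The number of genes with at least 1 FPKM (fragments scaled to transcript length and library size) was 12192 and 11355 in cKO_0 and cKO_1, against 12360 and 9850 in cHet_0 and cHet_1. Ptch1 had scaled counts of 22420 and 23341 in cKO, against 12867 and 5438 in cHet; this value covers the whole transcript and does not show whether an exon was deleted. The defining mesenchymal transcripts Runx2 and Pthlh, the PTHrP gene, were present in every library, at 25078 to 28344 and 8613 to 12267 in cKO, against 23232 to 28353 and 9253 to 15879 in cHet. Of 10 dental epithelium markers, 0 were at 0 in any library. Their summed scaled counts were 971719 and 2769340 in cKO, against 582630 and 1489000 in cHet, and overlapped. The largest part was Amelx, at 499696 and 1334660 in cKO, against 275248 and 698812 in cHet. Of the 10, 5 had higher and 5 lower values in cKO. Without overlap, 0 were higher (against 18% of all genes tested) and 1 was lower (10%, against 14.2%). This was Epcam, at 621 and 1002 in cKO, against 4828 and 2448 in cHet. Summed scaled counts of 13 dental follicle markers were 5648720 and 5517030 in cKO, against 7828830 and 8693860 in cHet. Of the 13, 3 had higher and 10 lower values in cKO. Without overlap, 7 were lower (53.8%, against 14.2% of all genes tested) and 1 was higher (7.69%, against 18%). The lower ones included Tnn, at 2676 and 3549 in cKO, against 10118 and 24448 in cHet. Dcn was another, at 19594 and 23248 in cKO, against 54343 and 46719 in cHet. The 8 endothelial markers summed to 2970 and 10344 in cKO, against 2276 and 5760 in cHet. Of the 7 that passed the filter, 6 had higher values in cKO. Pecam1 was at 299.5 and 1278 in cKO, against 0 and 5.23 in cHet. Kdr, at 1944 and 3145 in cKO, against 1900 and 4054 in cHet, overlapped between the groups. Tie1 overlapped as well, at 4.31 and 2125 in cKO, against 4.05 and 1620 in cHet. Leukocyte markers (6 of 10 higher and 4 lower in cKO) summed to 1595 and 12110 in cKO, against 1574 and 7990 in cHet. In cHet_1 Ptprc was at 0, whereas Lyz2 stood at 4385 and Cd68 at 1771. Emr1 was at 0 and 2.27 in cKO, against 36.4 and 203 in cHet. Schwann cell markers (6 of 6 with higher values in cKO) summed to 6824 and 22694 in cKO, against 3012 and 687 in cHet. Whether dividing cells of these other types contributed to the values below was not tested.

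Cell division follows a fixed programme of transcripts. Before S phase, cyclin E with Cdk2 and the E2F factors switch on genes for loading and firing the replicative helicase, for the replication fork and for deoxynucleotides. After replication, cyclin A and cyclin B with Cdk1, and the factors B-Myb (Mybl2) and Foxm1, drive a later set for spindle assembly, chromosome segregation and cytokinesis. Repression of the early set acts through E2F sites and that of the late set through the cell cycle homology region (CHR), often beside CCAAT boxes bound by NF-Y. In tooth follicle mesenchyme these transcripts mark cells in cycle. In bulk RNA, fewer cycling cells and less of these RNAs per cycling cell cannot be told apart.

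The promoter sequences showed this division between the early and late sets for part of the genes. The windows below run from 250 bases before to 50 bases after the RefSeq start site (GRCm38.p6) and are shown because Mcm6 and Top2a were measured at high level in every library, whereas Cdc6 and Cdk1 were nearly missing from 1 library. Capitals mark matches on both strands to the E2F motif (TTTCCCGC, TTTCGCGC, TTTGCCGC or TTTGGCGC), the CHR motif (TTTGAA or TTCGAA) and the CCAAT box. The Mcm6 window (chr1:128359656-128359955, minus strand) and the Cdc6 window (chr11:98907901-98908200, plus strand) stand for S phase, and the Cdk1 window (chr10:69352863-69353162, minus strand) and the Top2a window (chr11:99024140-99024439, minus strand) for G2 and M phase.
Mcm6: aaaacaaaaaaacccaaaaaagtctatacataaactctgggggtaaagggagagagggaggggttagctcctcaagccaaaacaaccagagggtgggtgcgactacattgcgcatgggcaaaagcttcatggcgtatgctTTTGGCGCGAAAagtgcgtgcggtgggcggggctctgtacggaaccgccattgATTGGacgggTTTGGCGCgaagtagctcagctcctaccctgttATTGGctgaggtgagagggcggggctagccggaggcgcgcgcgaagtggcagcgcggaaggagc
Cdc6: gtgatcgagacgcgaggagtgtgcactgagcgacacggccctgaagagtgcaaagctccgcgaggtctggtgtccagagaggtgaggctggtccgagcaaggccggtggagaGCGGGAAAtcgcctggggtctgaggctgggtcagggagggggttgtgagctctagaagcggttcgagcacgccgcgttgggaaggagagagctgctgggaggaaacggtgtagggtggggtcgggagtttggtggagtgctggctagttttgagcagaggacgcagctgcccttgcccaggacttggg
Cdk1: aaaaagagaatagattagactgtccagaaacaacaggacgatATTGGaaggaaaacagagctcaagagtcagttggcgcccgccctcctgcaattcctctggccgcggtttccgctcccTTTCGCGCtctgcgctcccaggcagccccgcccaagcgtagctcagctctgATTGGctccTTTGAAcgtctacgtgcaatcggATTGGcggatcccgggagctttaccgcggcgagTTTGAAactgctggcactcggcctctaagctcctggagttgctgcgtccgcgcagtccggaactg
Top2a: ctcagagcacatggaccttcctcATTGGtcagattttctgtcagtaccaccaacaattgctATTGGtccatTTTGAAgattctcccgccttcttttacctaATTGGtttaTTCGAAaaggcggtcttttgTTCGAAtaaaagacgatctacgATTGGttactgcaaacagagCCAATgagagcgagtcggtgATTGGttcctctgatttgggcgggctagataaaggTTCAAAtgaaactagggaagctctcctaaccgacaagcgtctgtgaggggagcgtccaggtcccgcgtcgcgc
The Mcm6 window held 3 E2F matches, 2 of which overlap each other, and 2 CCAAT boxes. The Cdc6 window held 1 E2F match, at positions -138 to -131 with the RefSeq start site as 0. In GENCODE the gene starts at 98907801, before the first base of this window, so there the match lies inside the gene. The Cdk1 window held both kinds, an E2F match and 2 CHR matches, with 3 CCAAT boxes. The Top2a window held 4 CHR matches and 6 CCAAT boxes and no match to the E2F letters. Windows of other members departed from the division. That of Mcm2, an S phase gene, held a CHR match and a CCAAT box but no E2F match. Those of Mybl2, also nearly missing from 1 library, and of Tk1 held 0 matches to any of the motifs.

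Over all members, the motifs fell to different phases. The E2F letters were found for 8 of 19 S phase genes with a promoter entry (42.1%), against 1 of 26 G2 and M phase genes (3.85%) and 2.6% of all 27025 genes with an entry. The CHR letters were found for 4 of 19 S phase genes (21.1%), against 21 of 26 G2 and M phase genes (80.8%) and 21.7% of all genes. CCAAT boxes were found for 14 of 19 S phase genes and 21 of 26 G2 and M phase genes, 73.7% and 80.8%, against 41.1% of all genes. A CHR match together with a CCAAT box was held by 19 of the 26 G2 and M phase genes (73.1%), against 8.61% of all genes. The shares describe letters in these windows and not binding. Ccne2, Mcm4, Gins2, Ccna2, Cdc25c, Foxm1, Aurkb, Kif20a and Tpx2 had no entry.

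**Figure D1:**
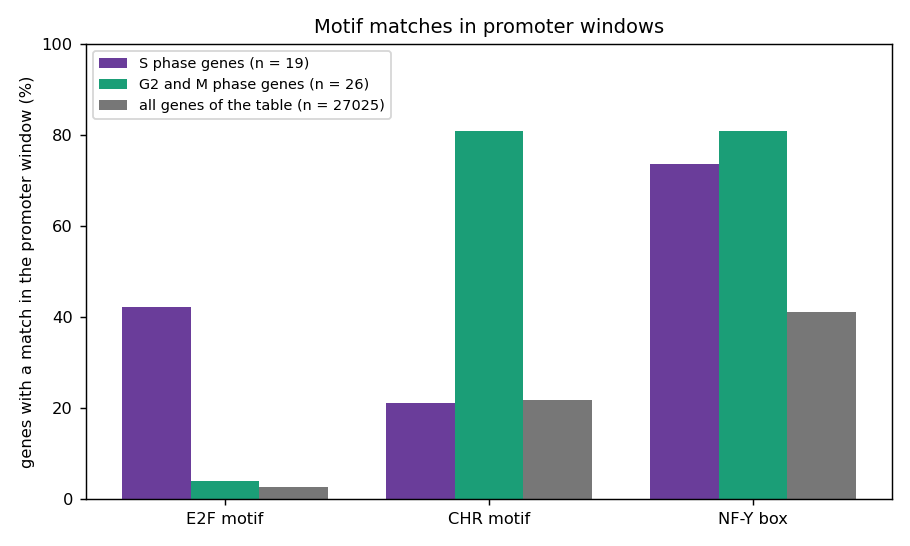
Share of genes (%, vertical axis) with at least 1 match to the E2F motif, the CHR motif and the NF-Y box in the promoter window, for 19 S phase genes, 26 G2 and M phase genes and 27025 genes in all. The E2F bar is highest for S phase genes at 42.1% and the CHR bar for G2 and M phase genes at 80.8%.

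No cell cycle gene passed the test for a difference between cKO and cHet. Limma, with Benjamini-Hochberg adjustment over the 14297 genes tested, called 0 of 54 members higher and 0 lower, against a background of 0% of all genes in each direction; the lowest adjusted p among members was 0.913. At an unadjusted limma p under 0.05 the members numbered 0, against 1.54% of all genes higher and 1.49% lower. All 54 members passed the filter on low values. Log2 fold changes (cKO less cHet, of log2 values after adding 3 to each scaled count) were above 0 for 38 members and below 0 for 16, with a median of 0.34 against 0.12 over all genes tested. The median standard error (SE) of a single member's fold change was 0.62. It describes 1 gene and not the median over the members, whose error was not computed.

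Fold changes of both phases leaned the same way. Of all genes tested, 56.3% had higher values in cKO. Of 22 S phase genes, 15 had higher values in cKO (68.2%, median log2 fold change 0.32, quartiles -0.07 and 1.44). Of 32 G2 and M phase genes, 23 had higher values (71.9%, median 0.36, quartiles -0.10 and 0.62). These leanings depended on libraries cHet_1 and cKO_0. Without cHet_1, 11 of 22 and 10 of 32 had higher values, against 46.2% of all genes. The medians were then -0.02 and -0.22, against -0.05 over all genes. Without cKO_0, 13 of 22 and 17 of 32 had higher values, against 54.7% of all genes. The medians were then 0.04 and 0.05, against 0.11 over all genes.

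The size of the whole programme differed more between libraries of 1 group than between groups. The 22 S phase genes accounted for 0.137% and 0.106% of all scaled counts of cKO_0 and cKO_1, against 0.123% and 0.0877% in cHet_0 and cHet_1. The 32 G2 and M phase genes made up 0.162% and 0.115% in cKO_0 and cKO_1, against 0.149% and 0.0918% in cHet_0 and cHet_1. In both phases the order was cKO_0, cHet_0, cKO_1, cHet_1, so the groups overlapped. The ratio of the S phase sum to the G2 and M phase sum was 0.843 and 0.921 in cKO, against 0.823 and 0.955 in cHet, and this balance overlapped as well. For 50 of 54 members the wider within-group gap on the log2 scale exceeded the difference between group means, as it did for 83.7% of all genes tested.

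Within each genotype the library numbered 0 was the higher. Scaled counts were higher in cKO_0 than in cKO_1 for 44 of 54 members, against 52.5% of all genes tested, and higher in cHet_0 than in cHet_1 for 38 of 54, against 57.9%. In FPKM the same counts were 49 and 51 of 54, against 72.1% and 78.9% of all genes. The 2 units did not differ by a fixed factor. Over the 54 members, the scaled count per FPKM in cHet_1 was 0.912 to 5.89 times that in cHet_0. In cKO_1 it was 0.955 to 4.35 times that in cKO_0. Overlap in FPKM can therefore differ from overlap in scaled counts, and the cause was not tested. Expressed as a median log2 distance from each gene's mean, the G2 and M phase genes stood at 0.37 and -0.08 in cKO_0 and cKO_1, against 0.40 and -0.58 in cHet_0 and cHet_1. All genes tested stood at 0.13 and 0.07 in cKO, against 0.12 and -0.16 in cHet. The sources used here do not say what the number in a column name stands for.

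**Figure D2:**
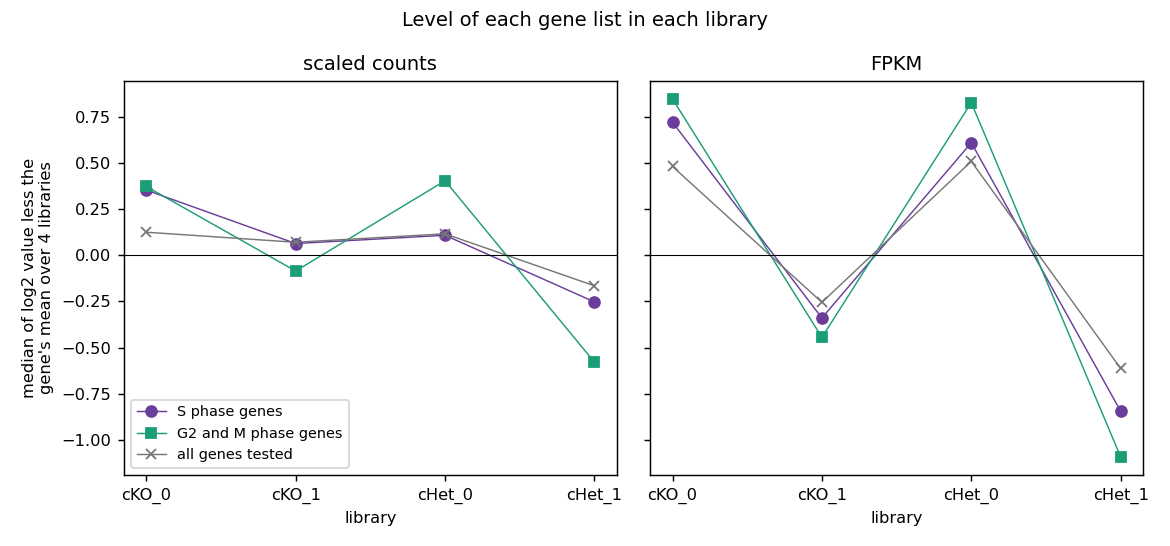
Median of log2 values less each gene's mean over 4 libraries (vertical axis, log2 units) in each library (horizontal axis), in scaled counts (left) and FPKM (right), for the S phase genes, the G2 and M phase genes and all genes tested. In scaled counts the G2 and M phase genes run from 0.40 in cHet_0 to -0.58 in cHet_1, and in FPKM both libraries numbered 1 lie below 0.

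The clearest feature of the members was a set of genes nearly missing from cHet_1. In that library 9 of 54 had less than 5% of their lowest value in the other 3 libraries: the S phase genes Mcm4, Cdc6, Gins2, Uhrf1 and Chaf1a and the G2 and M phase genes Cdk1, Mybl2, Bub1b and Ect2. No member was nearly missing in this sense from cKO_0, cKO_1 or cHet_0, where 44 members each had at least 200 in all the other libraries. The 5% limit was chosen after the values were seen; just inside it Cdc6 was at 3.4% of its lowest other value and just outside Cenpe was at 10.7%. Among all genes tested with at least 200 in the other libraries, 9.59% (1044 of 10892) were nearly missing from cHet_1, against 0.355% from cKO_0, 0.239% from cKO_1 and 0.0422% from cHet_0. Among the 9270 genes of the members' range of level the share was 8.66%, against 9 of 54 members (16.7%). Near-missing genes in that library thus reached well beyond the cell cycle, and included 5 of 22 S phase genes (22.7%) and 4 of 32 G2 and M phase genes (12.5%).

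**Figure D3:**
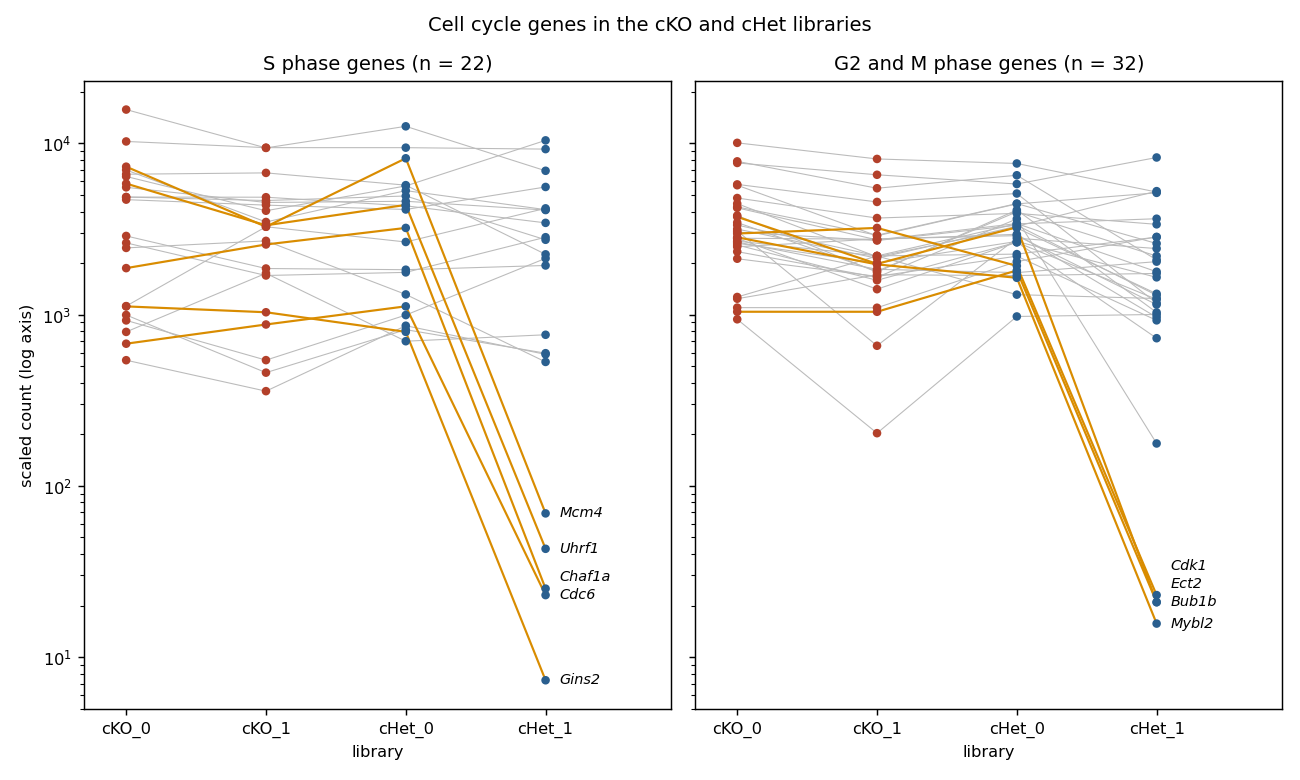
Scaled count (vertical log axis) of each S phase gene (left, n = 22) and each G2 and M phase gene (right, n = 32) in libraries cKO_0, cKO_1, cHet_0 and cHet_1; lines join the values of a gene, red points are cKO and blue points cHet. The 9 genes drawn in orange and named fall to between 7.33 and 69.1 in cHet_1, whereas the other 45 stay at 177 or more there.

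The 9 nearly missing genes act at many points of the cycle. Cdk1 (chromosome 10, 69335146 to 69352938, minus strand), the kinase that drives entry into mitosis, had scaled counts of 2977 and 3210 in cKO, against 1926 and 23.0 in cHet. Mybl2 (chromosome 2, 163054687 to 163084688), which encodes B-Myb, had 2829 and 1965 in cKO, against 1641 and 15.7 in cHet. In scaled counts both genes also had cKO values above that of cHet_0. Their log2 fold changes were 3.79 (SE 1.82, limma adjusted p = 0.913) and 3.75 (SE 1.97, limma adjusted p = 0.913). Without cHet_1 these log2 fold changes were 0.68 and 0.52. In FPKM Cdk1 overlapped, with cKO_1 at 8.21 and cHet_0 at 10.2, and Mybl2 did not. Bub1b, the spindle checkpoint kinase BubR1, had 3724 and 1979 in cKO, against 3238 and 20.9 in cHet. Ect2, the exchange factor that positions the cleavage furrow, had 1040 and 1039 in cKO, against 1811 and 20.9 in cHet. For Bub1b the remaining cHet library lay between the cKO libraries, and for Ect2 it lay above both.

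The nearly missing S phase genes serve replication origins and new chromatin. Gins2 (chromosome 8, 120578633 to 120589304, minus strand), a subunit of the GINS complex of the active helicase, had 1117 and 1033 in cKO, against 794 and 7.33 in cHet. Uhrf1, which guides DNA methylation to newly copied strands, had 5826 and 3324 in cKO, against 4374 and 42.9 in cHet. Chaf1a, the large subunit of the histone chaperone CAF-1, had 1869 and 2569 in cKO, against 3210 and 25.1 in cHet. Of these 3 genes, Gins2 alone had both cKO values above both cHet values. Cdc6, which loads the helicase onto origins, had 677 and 876 in cKO, against 1118 and 23.0 in cHet, so that its cHet_0 value was the highest of the 4.

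These 9 genes also had the largest fold changes, which follows largely from their choice by low values in cHet_1 and supports nothing further. Their log2 fold changes ran from 2.18 to 3.79, with a median of 3.29, while those of the other 45 ran from -1.17 to 1.62, with a median of 0.21 and 29 of 45 above 0. When cHet_0 was left out, so that cHet_1 alone stood for cHet, limma called 11 members higher, the 9 together with Prc1 and Cenpe. The 9 were chosen for their low values in cHet_1, so that their passing in that fit follows from the choice and supports nothing, and 7.42% of all genes tested were called higher there and 0.546% lower, with 0 members lower. When cHet_1 was left out, 0 members passed and 4 of the 9 were above 0. The 9 genes had longer transcripts at the median, with ranges that overlapped: the longest coding transcript had 3586 to 5535 bases in the 9 (median 3900) and 1440 to 11130 in the other 45 (median 3026), 14 of which were at least 3586 bases long. The part of length in the low values was not tested. Over all genes with an annotated coding transcript the median was 3579 bases for 934 nearly missing genes and 3337 bases for 8825 others.

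**Figure D4:**
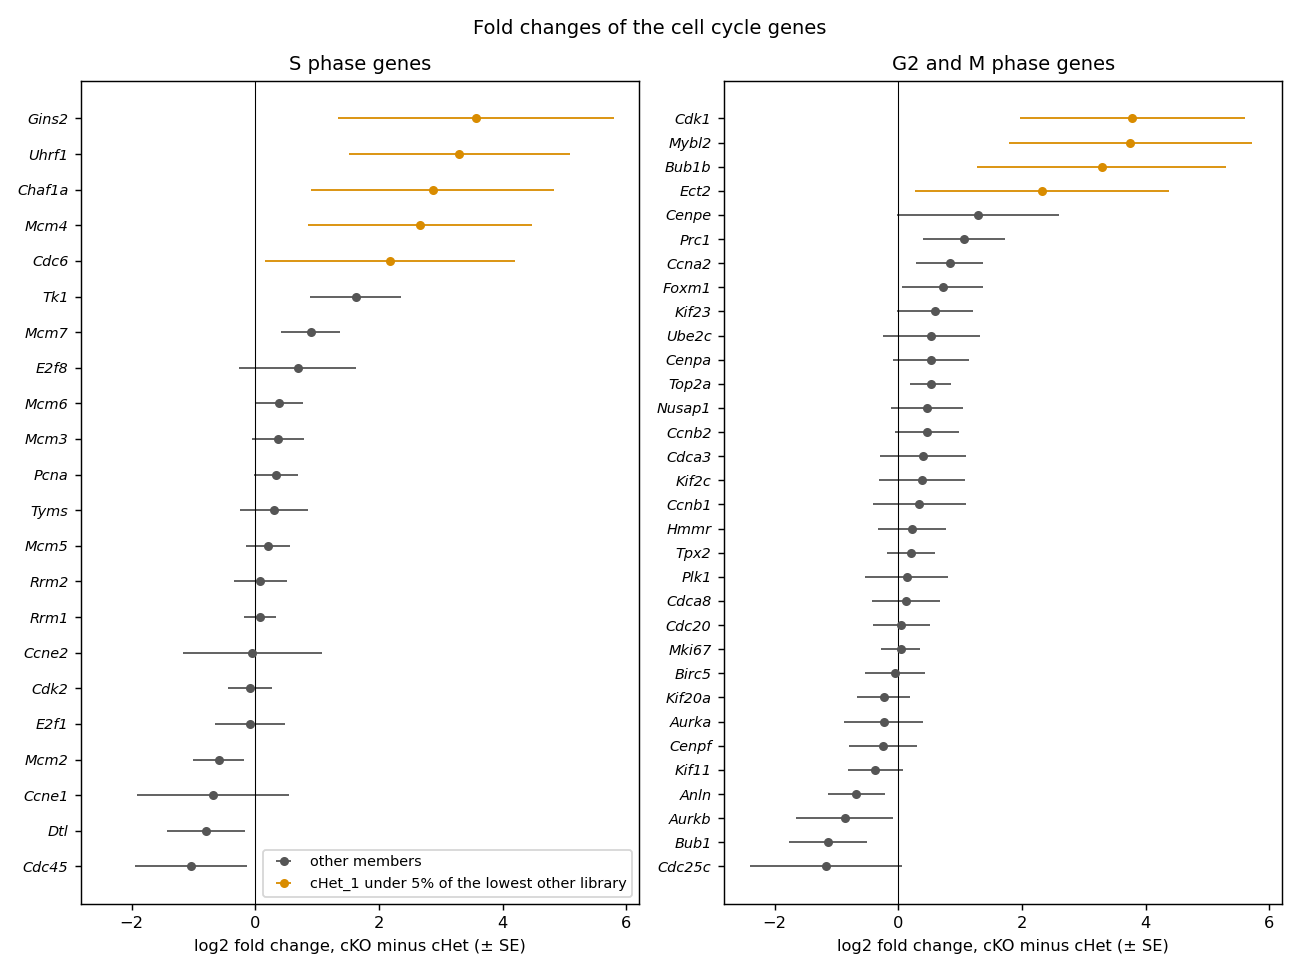
Log2 fold change (horizontal axis, cKO less cHet, bars ± SE, 2 libraries a group) of each S phase gene (left) and G2 and M phase gene (right), in order of size. The 9 genes nearly missing from cHet_1, in orange, hold the highest positions, from 2.18 to 3.79, and the other genes lie between -1.17 and 1.62. The 9 were chosen by their low values in cHet_1, which raises these fold changes.

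Genes of 1 protein complex, the helicase ring, differed widely in level in cHet_1. Mcm2 to Mcm7 encode the 6 subunits of the ring that unwinds DNA, which contains 1 copy of each. In FPKM, a level per transcript length, the highest subunit exceeded the lowest by 3.29-fold in cKO_0 and 5.33-fold in cKO_1, against 3.22-fold in cHet_0 and 364-fold in cHet_1. Mcm4 (chromosome 16, 15623897 to 15637400, minus strand) had 28.9 and 5.61 FPKM in cKO, against 32.8 and 0.111 FPKM in cHet. Mcm2 (chromosome 6, 88883474 to 88898780, minus strand) had 26.9 and 15.2 FPKM in cKO, against 23.2 and 40.2 FPKM in cHet. Mcm2 was thus highest in the library in which Mcm4 was lowest. In scaled counts Mcm4 had 7313 and 3260 in cKO, against 8187 and 69.1 in cHet, and Mcm2 had 6410 and 4044 in cKO, against 5645 and 10418 in cHet.

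The other 4 subunits stayed above 2000 scaled counts in every library. Mcm6, the subunit with the highest mean FPKM over the 4 libraries, had 15763 and 9411 scaled counts in cKO, against 12583 and 6921 in cHet. Mcm7 (chromosome 5, 138164583 to 138172422, minus strand) had 6606 and 6728 in cKO, against 5705 and 2250 in cHet. Mcm3 had 4861 and 4639 in cKO, against 4931 and 2737 in cHet, and Mcm5 had 5541 and 4520 in cKO, against 4594 and 4082 in cHet. Only Mcm7 among the 6 did not overlap between the groups in scaled counts (log2 fold change 0.90, SE 0.47, limma adjusted p = 0.913). Its log2 fold change was 0.22 without cHet_1 and 1.57 without cHet_0. In FPKM it overlapped, since cHet_0 (34.1) stood above cKO_1 (29.9). Exons of Ap4m1 and Cops6 on the opposite strand overlap those of Mcm7, and counting by strand is not stated, so its value may include their reads.

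**Figure D5:**
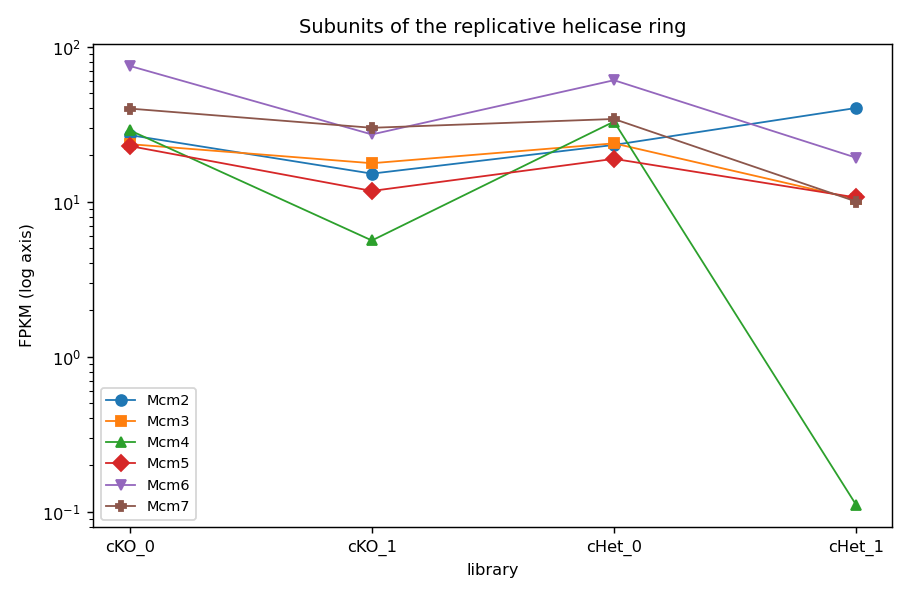
FPKM (vertical log axis) of the 6 subunits Mcm2 to Mcm7 in libraries cKO_0, cKO_1, cHet_0 and cHet_1. In the first 3 libraries the subunits stay within 5.33-fold of each other, and in cHet_1 Mcm4 stands at 0.111 FPKM and Mcm2 at 40.2 FPKM.

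Groups that did not overlap were found among the members in both directions. In scaled counts, 9 of 54 members (16.7%) had both cKO values above both cHet values, against a background of 18% of all genes tested. The 9 were Tk1, Mcm7, Gins2, Pcna, E2f8 and Rrm1 in S phase and Cdk1, Mybl2 and Top2a in G2 and M phase. Another 6 members (11.1%) had both cKO values below both cHet values, against 14.2% of all genes: Ccne1 and Cdc45 in S phase and Bub1, Anln, Cdc25c and Kif11 in G2 and M phase. In FPKM, 4 members (7.41%) were higher without overlap, against 11.5% of all genes, and 2 (3.70%) were lower, against 8.73%. Tk1, Gins2, E2f8 and Mybl2 were higher in both units, Cdc45 was lower in both, and Dtl was lower in FPKM only.

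Tk1 had the lowest p of the members. It encodes thymidine kinase 1 (chromosome 11, 117815526 to 117826092, minus strand), the salvage enzyme for thymidine, and had scaled counts of 2453 and 2697 in cKO, against 1313 and 530 in cHet. Its FPKM were 28.9 and 30.0 in cKO, against 15.2 and 6.05 in cHet. In both units the cKO libraries lay close together and above both cHet libraries. The log2 fold change was 1.62 (SE 0.74), with an unadjusted limma p of 0.0595 and an adjusted p of 0.913. Without cHet_1 it was 0.97. Exons of Afmid on the opposite strand overlap those of Tk1, and counting by strand is not stated, so its value may include their reads.

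The other genes of nucleotide supply were nearer to equal. Rrm1, the large subunit of ribonucleotide reductase, had 10267 and 9447 in cKO, against 9444 and 9263 in cHet, groups that did not overlap but were nearly equal (log2 fold change 0.07, SE 0.26). Rrm2, the small subunit, had 6996 and 3477 in cKO, against 5300 and 4104 in cHet, and overlapped. Tyms, thymidylate synthase, had 2881 and 1860 in cKO, against 1830 and 1937 in cHet. All 4 genes of this role had fold changes above 0 on the main scale, with a median of 0.19. With TMM scaling Rrm1 and Rrm2 were at -0.013 and -0.0074, and with median-of-ratios scaling at -0.030 and -0.024.

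The 3 genes of cyclin E and its kinase had log2 fold changes below 0, from -0.69 to -0.05, each within its SE. Cdk2, the partner of cyclin E, had 4695 and 4361 in cKO, against 4113 and 5567 in cHet. Ccne1, cyclin E1, had 542 and 357 in cKO, against 862 and 586 in cHet, lower without overlap but by a log2 fold change (-0.69) within its SE of 1.23. Ccne2, cyclin E2, had 995 and 458 in cKO, against 817 and 595 in cHet. The groups of Cdk2 and Ccne2 overlapped. E2f1, an activating E2F factor, had 2624 and 1693 in cKO, against 1765 and 2833 in cHet, while E2f8, a repressing one, had 793 and 1743 in cKO, against 700 and 763 in cHet. Pcna, the sliding clamp of the polymerases (chromosome 2, 132249162 to 132253314, minus strand), had 4859 and 4851 in cKO, against 4320 and 3436 in cHet, a log2 fold change of 0.33 (SE 0.36) that was 0.17 without cHet_1. Cdc45, the helicase activator, had 925 and 542 in cKO, against 994 and 2132 in cHet. The Pcna groups did not overlap in scaled counts and did in FPKM.

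The classical proliferation markers Mki67 and Top2a did not pass the test. Mki67, which coats mitotic chromosomes and marks cycling cells (chromosome 7, 135689784 to 135716361, minus strand), averaged 7124 ± 799 in cKO and 7034 ± 1756 in cHet (SD, n = 2 each). Its libraries stood at 7689 and 6559 in cKO, against 5793 and 8276 in cHet, so cHet_1 held the highest value. The log2 fold change was 0.04 (SE 0.32, limma adjusted p = 0.992). Top2a, the topoisomerase that untangles sister chromatids (chromosome 11, 98992943 to 99024189, minus strand), had 10076 and 8116 in cKO, against 7635 and 5199 in cHet. Its groups did not overlap in scaled counts, and the log2 fold change was 0.52 (SE 0.32, limma adjusted p = 0.913). It was 0.24 without cHet_1 and 0.80 without cHet_0. In FPKM they overlapped, at 26.1 and 8.67 in cKO, against 20.7 and 4.81 in cHet.

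The mitotic cyclins overlapped between the groups. Ccnb1, cyclin B1, had 3793 and 1771 in cKO, against 4084 and 1030 in cHet. Ccnb2, cyclin B2, had 4204 and 2732 in cKO, against 3403 and 1781 in cHet, and Ccna2, cyclin A2, had 7856 and 5473 in cKO, against 6516 and 2090 in cHet. For all 3 genes the libraries numbered 0 exceeded those numbered 1 within each group. In scaled counts their partner Cdk1 did not follow them within cKO, since cKO_1 (3210) stood above cKO_0 (2977). In FPKM it did, at 15.5 and 8.21 in cKO_0 and cKO_1, against 10.2 and 0.0542 in cHet_0 and cHet_1. Foxm1, the forkhead factor of the late set, had 2795 and 2755 in cKO, against 2946 and 965 in cHet.

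Kinases and checkpoint genes had fold changes on both sides of 0. Bub1, a spindle checkpoint kinase (chromosome 2, 127801122 to 127831865, minus strand), had 1099 and 1097 in cKO, against 2041 and 2844 in cHet. Its log2 fold change was -1.13 (SE 0.63, limma adjusted p = 0.913), and in FPKM the groups overlapped, at 3.61 and 1.28 in cKO, against 6.99 and 2.65 in cHet. Birc5 (survivin, of the chromosomal passenger complex) had 2687 and 2204 in cKO, against 2257 and 2837 in cHet. Its partner kinase Aurkb had 3083 and 658 in cKO, against 2794 and 2432 in cHet, the low value being that of cKO_1. Cdc25c, the phosphatase that activates Cdk1, was likewise low in cKO_1, at 939 and 203 in cKO, against 976 and 1003 in cHet. Of the 7 kinase and checkpoint genes, 3 had fold changes above 0 and 4 below.

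Genes of the anaphase-promoting complex and the centromere overlapped between the groups, as did 7 of 8 spindle genes. Cdc20, the activator of the anaphase-promoting complex, had 4257 and 2909 in cKO, against 4453 and 2602 in cHet. Ube2c, its ubiquitin-conjugating enzyme, had 2550 and 1587 in cKO, against 2648 and 728 in cHet. Cenpa, the histone variant of the centromere, had 2491 and 2766 in cKO, against 2893 and 1145 in cHet. In each of these genes cHet_0 was the highest library and cHet_1 the lowest. Prc1, which bundles the microtubules of the central spindle, had 5763 and 4553 in cKO, against 5098 and 1167 in cHet (log2 fold change 1.07, SE 0.66, limma adjusted p = 0.913), and without cHet_1 its log2 fold change was 0.0068. Anln, the actin-binding protein anillin of the cleavage furrow, had 3161 and 2134 in cKO, against 3282 and 5263 in cHet, and did not overlap in scaled counts (log2 fold change -0.68, SE 0.46, and -0.34 without cHet_1). Of the 8 spindle genes, Kif11, a motor that separates the spindle poles, was the only 1 without overlap, at 3334 and 2203 in cKO, against 3390 and 3632 in cHet.

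Further genes of both phases, outside the 54, were counted in the same way. Of 43 replication genes measured, 30 had higher and 13 lower values in cKO (median log2 fold change 0.43), 0 passed in limma over all genes, and 12 of the 40 with at least 200 elsewhere were nearly missing from cHet_1. Pola2, the second subunit of DNA polymerase alpha, had the lowest p of these, with 3430 and 2709 in cKO, against 1595 and 774 in cHet (log2 fold change 1.45, SE 0.63). Usp1, a deubiquitinase of Pcna, had 4130 and 3484 in cKO, against 4748 and 8447 in cHet. The Pola2 groups did not overlap, and Usp1 was highest in cHet_1, with cKO values below both cHet values.

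Of 45 further mitosis genes, 31 had higher and 14 lower values (median 0.70), 0 passed in limma over all genes, and 8 of 43 were nearly missing from cHet_1. Ncapd2, a condensin subunit, had 7642 and 7544 in cKO, against 4737 and 3230 in cHet (log2 fold change 0.96, SE 0.35, limma adjusted p = 0.913). Kif4, a chromosome-bound motor, had 3202 and 1488 in cKO, against 939 and 479 in cHet. Hjurp, the chaperone of Cenpa, had 1967 and 488 in cKO, against 1883 and 3800 in cHet, and overlapped. Ncapd2 and Kif4 did not overlap.

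Brakes on the cycle were also measured. Of 14 such genes 13 passed the filter, 8 with higher and 5 with lower values in cKO (median log2 fold change 0.16) and 0 passing in limma over all genes; Cdkn2a, with at most 6.46 in any library, did not pass the filter. Btg2, an antiproliferative gene of the early response, had 36555 and 65083 in cKO, against 31715 and 18181 in cHet (log2 fold change 1.02, SE 0.36, limma adjusted p = 0.913). Cdkn1a, the Cdk inhibitor p21, had 3255 and 9482 in cKO, against 13081 and 9294 in cHet, and overlapped. Fzr1, the activator of the anaphase-promoting complex in G1, had 8218 and 6592 in cKO, against 6849 and 3776 in cHet, and overlapped too.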

How the data were processed

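Per the labels' protocols, follicle cells were dissociated with enzymes and sorted, total RNA (PicoPure kit) was turned into cDNA with SMART-Seq v4 and into libraries with Nextera XT. Per the submitters' processing notes, the build was mm10; TopHat2 (2.0.13), Bowtie2 (2.2.1), HTSeq, DESeq2, Cufflinks, Cuffdiff and FastQC are listed there without their roles. The main values are scaled counts, a normalized signal per gene deposited by the authors; low values were not whole multiples of 1 step throughout, so count tests were not run. FPKM values, deposited by the authors, served as an alternative. A further 16 columns in 4 tables have names found in no label and stayed out. Since columns are numbered from 0 and titles from 1, a column was tied to its group and not to a sample. The labels do not state whether a group's libraries are from different animals; p-values reflect only how these libraries vary, which may be technical.

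The test was limma (version 3.58.1 in R 4.3.3), its variance prior following mean level, on log2(scaled count + 3) for the 14297 genes with at least 10 in at least 2 libraries, with group as the only term. Tests were two-sided, adjustment (Benjamini-Hochberg) ran over all genes tested with a threshold of 0.05, and the fit was tested on simulated data. Adding 3 understates the change of low genes. The depth in reads is unknown, since the deposited values are scaled. The members and lists were chosen with earlier results of these data known. Lists are described by counts and medians. Values are given by library for 6 fixed genes, for the 4 members of each phase with the highest mean FPKM and the 4 with the lowest p, and for the most abundant member of each role; the other members with values (the genes nearly missing from cHet_1, those without overlap, Mcm3, Mcm5, Tyms, Ccne2, Ccna2, Aurkb and Cenpe) were named after their values were seen. Alternatives were other pseudocounts, filters, scalings and units, library weights, no trend, a replicate block and leaving out each library. Gene coordinates are from GENCODE vM21 (the assembly of mm10, 1-based). In it, exons of 17 members, among them Mcm7, Tk1, Gins2 and Prc1, overlap a gene on the opposite strand and may share its reads. There, 4 members (Pcna, Tyms, Ccnb1 and Ccnb2) have a named pseudogene that may share reads. Promoter sequences are RefSeq's (GRCm38.p6), matched by symbol for 45 of 54 members. The values of 1 gene that the naming rule picks from the further replication list are not reported here.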

Additional observations from a re-analysis of the deposited data

How the results depend on the processing

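With the pseudocount, filter, TMM, median-of-ratios, library weight and no-trend alternatives, limma called 0 genes in either direction over all genes, as with all 4 libraries on the main scale. With log2(FPKM + 1) it called 3 higher and 4 lower, and with log2(FPKM + 0.1) 1 and 1, with 0 members among them; the cause was not tested. Leaving out a library gave between 0 and 1061 genes higher and between 0 and 78 lower, the most without cHet_0, and the medians ran from -0.02 to 0.46 in S phase and from -0.22 to 0.74 in G2 and M phase. Whether the numbers in the column names pair the libraries is not stated. In log2 scaled counts, deviations of cKO_0 and cHet_0 from their group means had a Pearson correlation of 0.05 across 14297 genes (genes are not independent replicates). With the replicate block 0 genes and 0 members passed. The ratio of scaled count to FPKM was higher in the library numbered 1 of both groups. At the median member it was 1.97-fold that of cHet_0 in cHet_1 and 1.75-fold that of cKO_0 in cKO_1. A difference tied to the number was not tested. Median-of-ratios scaling moved the median of all genes by -0.10 log2. Relative to the main values, direction turned for Mki67, Rrm2, Cdc20 and Rrm1, at -0.051, -0.0074, -0.040 and -0.013 with TMM and at -0.068, -0.024, -0.057 and -0.030 with median-of-ratios scaling, and for Birc5, at 0.37 and 0.39 with log2(FPKM + 1) and log2(FPKM + 0.1). The direction of 20 of the 38 genes followed depended on the setting. Over the fits that leave out a library, the log2 fold changes of those that turned there ran as follows: Birc5 from -0.22 to 0.11, Bub1b from -0.25 to 6.83, Ccnb1 from -0.66 to 1.33, Ccnb2 from -0.0059 to 0.93, Cdc20 from -0.34 to 0.44, Cdc6 from -0.54 to 4.89, Cdk2 from -0.30 to 0.14, Cenpa from -0.14 to 1.2, Cenpe from -0.88 to 3.45, Chaf1a from -0.55 to 6.29, E2f1 from -0.43 to 0.26, Ect2 from -0.80 to 5.45, Foxm1 from -0.086 to 1.52, Mcm3 from -0.054 to 0.79, Mcm4 from -0.75 to 6.08, Mcm6 from -0.047 to 0.82, Mki67 from -0.22 to 0.29, Rrm2 from -0.42 to 0.58 and Ube2c from -0.40 to 1.46. The planned edgeR and DESeq2 tests on recovered reads were not run, because whole reads could not be recovered. With 2 libraries a group, the spread between libraries limits precision, and a lone library is assumed to vary like the others.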
